A study of Homo sapiens with 6 samples.

Results

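The genes described here encode the proteins of the mitochondrial ribosome. They were taken by symbol, as all probe sets whose name in the platform's probe table begins with MRPL or MRPS and a digit. The rule itself uses no measured value, but it was chosen with earlier results of these data known. The pattern matched 65 of the 22283 probe sets on the array. Of these 64 carried 1 symbol and stood for 51 genes, 31 named for the large subunit and 20 for the small one. The RefSeq gene table lists 77 protein-coding genes of that pattern, 49 MRPL and 28 MRPS. The remaining probe set carried the symbol of a pseudogene, MRPS31P5, together with that of an unrelated gene, THSD1. It was set aside, with normalised intensities of 33.8 and 81.9 at 0 h, 9.47 and 95.5 at 6 h, then 98.8 and 143 at 9 h.

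Mitochondria carry their own ribosomes, which translate the few messages encoded by mitochondrial DNA, all of them for membrane subunits of the respiratory chain and of ATP synthase. The ribosomal RNAs come from mitochondrial DNA, while the proteins of the particle are encoded in the nucleus, made in the cytosol and imported. The small subunit binds the message and holds the decoding centre, and the large subunit forms the peptide bond.

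RNA came from Hs578T, an established breast cancer line of mesenchymal character, with an inducible copy of the homeobox transcription factor HOXA5. The groups were cells induced for 9 h, cells induced for 6 h and uninduced cells (0 h), with 1 Affymetrix array each from experiment 1 and experiment 2, hence n = 2 arrays per group. Every group carried the inducible construct, and the labels give neither the inducing agent nor the number of clones behind the line. Arrays of uninduced cells at 6 h or 9 h were not analysed here, so HOXA5, the agent and time in culture cannot be told apart. The level of HOXA5 itself, which would check the induction, was not analysed here. The labels speak of 2 batches of RNA and not of separate cultures, so the p-values measure the spread between these arrays, which may be technical. For the 6 h array of experiment 2 the label's lot line names experiment 1, and the array was placed by its title.

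The arrays differed in overall brightness, with median deposited intensities between 18.7 and 95.7, and were quantile normalised, so changes are relative to the whole array. In unscaled values the genes tested had a median log2 change of -0.58 for 9 h and of -1.38 for 6 h. For ACTB the 3' signal divided by the 5' signal was 1.82 on the 9 h array of experiment 1 and between 0.918 and 1.09 on the other arrays. Of 12 mesenchymal markers at least 11 were above the floor of 12.7 units on every array, with VIM between 4282 and 7670 normalised units. Of 10 luminal epithelial markers 6 to 8 were above it, with a summed intensity between 1148 and 3828, most of it from KRT18 (781 to 3510). ERBB3, ESR1, GATA3, KRT8 and TFF1 were also above the floor on every array, and EPCAM and KRT19 were below it on every array. Of 5 endothelial markers 1 to 3 were above the floor, with CDH5 below it on every array and a summed intensity between 59.2 and 81. Of 6 leukocyte markers 4 to 5 were above it, with LCP2 below it on every array and a sum between 202 and 307. The part of these markers in the results was not tested.

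Nearly all members lay above the floor, which is the 25th percentile of normalised intensities and not a call of detection. Of all 22283 probe sets on the array, 18360 passed the same filter and were tested. Of the 51 genes, 50 passed the filter of at least 2 arrays above the floor of 12.7 units, and 49 of them were above it on all 6 arrays. MRPL41, of the large subunit, was above the floor on 1 array and was not tested. Its 0 h arrays read 7.1 and 9.92, its 6 h arrays 29.2 and 8.23 and its 9 h arrays 7.68 and 5.02. Among the probe sets that stand for a gene, which are its brightest tested ones, the brightest of the large subunit were those of MRPL3 (979 to 1369 units), a protein near the peptidyl transferase centre, MRPL15 (681 to 1166), MRPL57 (424 to 767) and MRPL42 (435 to 855). The dimmest of these were those of MRPL52 (26.2 to 53.2), MRPL44 (43.9 to 78), MRPL19 (51.7 to 160) and MRPL2 (60.2 to 159). Among the same kind of probe sets of the small subunit MRPS22 (398 to 701), MRPS27 (295 to 521), MRPS30 (235 to 553) and MRPS12 (240 to 511) had the brightest probe sets. MRPS18C (5.52 to 22), MRPS16 (85.4 to 191), MRPS34 (79.5 to 233) and MRPS31 (117 to 252) had the dimmest, while further probe sets of some genes were dimmer. Brightness depends on the probe set as well as on its message, so these ranges give no order of amounts between genes.

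Members varied somewhat less over the arrays than genes in general. The standard deviation over the 6 arrays had a median of 0.34 (log2 scale) for the members and 0.43 for all 10444 genes tested. The members were also brighter, with a median log2 intensity of 7.88 to 8.35 by array, against 6.46 to 6.49 for all genes. Spread was not compared at matched brightness, so the difference is not shown to be a trait of the members. MRPL16 was the steadiest member, at 0.11, with 243 and 235 units on the 0 h arrays, 263 and 256 on those of 6 h and 247 and 211 on those of 9 h. MRPL12 and MRPL34 varied most, at 0.80 and 0.75.

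At 9 h of induction the stalk protein MRPL12 and MRPL34, both of the large subunit, were at least 2-fold below their 0 h level, which was so for 2 of 50 tested members and for 3.43% of all genes. MRPL12, which helps to recruit translation factors and also binds the mitochondrial RNA polymerase, read 101 and 96.3 units at 9 h, against 219 and 427 at 0 h. Both 9 h arrays lay below both 0 h arrays, and the 6 h arrays, with 179 and 201, lay between. Its log2 change at 9 h was -1.63 ± 0.38 (standard error of the limma fit), so that the 0 h level was 3.11 times the 9 h level, with an adjusted p = 0.543, or 0.0743 once the experiment was a term. MRPL34, with a bacterial counterpart, read 208 and 118 units at 9 h, against 392 and 475 at 0 h. Its 6 h values of 295 and 177 also lay below both 0 h arrays. The log2 change at 9 h was -1.46 ± 0.40, with an adjusted p = 0.577, or 0.0878 with that term. Neither gene passed the threshold of 0.05. Leaving out the 0 h array of experiment 2, MRPL12 had -1.15, and leaving out that of experiment 1 it had -2.11.

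**Figure D1:**
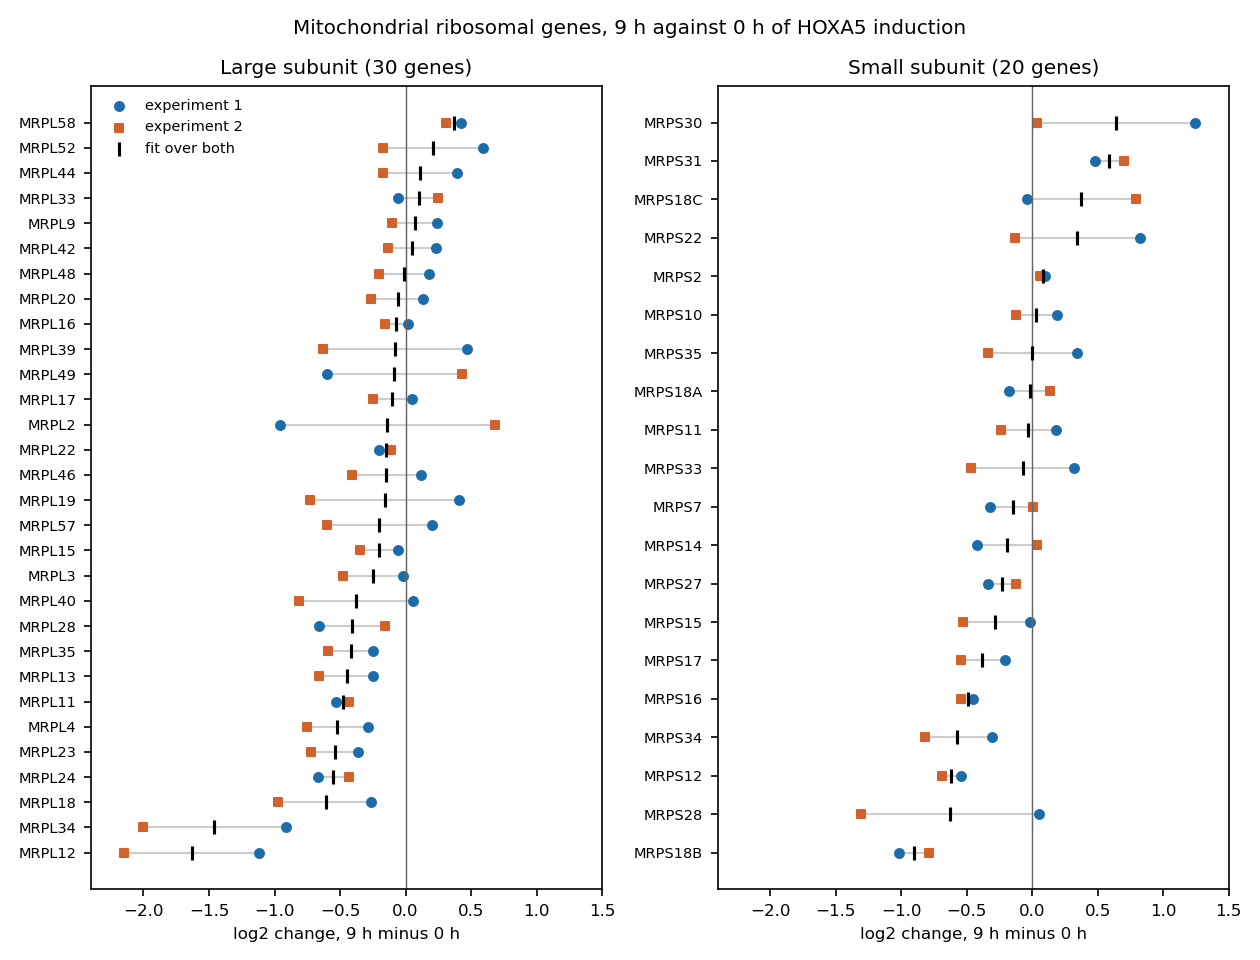
Log2 change between 9 h and 0 h for the 50 tested mitochondrial ribosomal genes by subunit, with a symbol for each experiment and a bar for the fit over both. MRPL12 and MRPL34 lie lowest, with fitted changes of -1.63 and -1.46, and in experiment 2 the change is below 0 for 39 genes, where 47.3% of all genes tested are.

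No member passed in any of the comparisons by limma, either without or with the experiment as a term. For 9 h against 0 h, 0 members passed, where 0% of the 18360 tested probe sets did. At an unadjusted p under 0.05 stood 3 members, MRPL12, MRPL34 and MRPS18B, against 7.91% of all genes. With the experiment as a term 0 members passed, where 0.359% of probe sets did. The unadjusted p was then under 0.05 for 6 members, against 15.1% of all genes, the others being MRPL18, MRPL23 and MRPS12. All 6 were lower at 9 h. In bulk RNA, fewer cells with a message and less of it per cell cannot be told apart.

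As a set the members lay at a median log2 change of -0.15 for 9 h (quartiles -0.44 and -0.01), against -0.02 for all genes tested. A change below 0 was seen in 38 of 50 members and in 51.3% of all genes. In 20 members the change was below 0 in both experiments, where 29.5% of all genes had this. Both 9 h arrays lay below both 0 h arrays in 17 members (19.4% of all genes) and above them in 2 (19.2%). Without the 0 h array of experiment 2, 18 members were lower and 15 higher in this way, beside 33.7% and 30.9% of all genes. When instead the experiment 1 array of 0 h was left out, 30 and 4 were, beside 31.8% and 28.9%. With the 9 h array of experiment 1 left out the counts were 25 lower (34.7% of all genes) and 10 higher (39.3%). They were 25 lower (36.3% of all genes) and 11 higher (33.3%) when its experiment 2 counterpart was dropped. The shares of all genes also grew in each of these settings. The members' median was -0.03 within experiment 1 and -0.30 within experiment 2, with -0.07 if only experiment 1 supplied the 0 h array and -0.36 if only experiment 2 did.

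The 0 h array of experiment 2 stood apart for these genes. It held the highest value of 21 of the 50 members, where 11.9% of all genes had theirs, and the lowest value of 2. A member's deviation from its own mean over the arrays had a median of 0.25 there, the same for large and small subunits, and 0.00 for all genes. On the other arrays the members' median deviation was between -0.17 and 0.06. The median deposited intensity of that 0 h array, 49, and its ACTB ratio, 1.04, were within the range of the others.

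**Figure D2:**
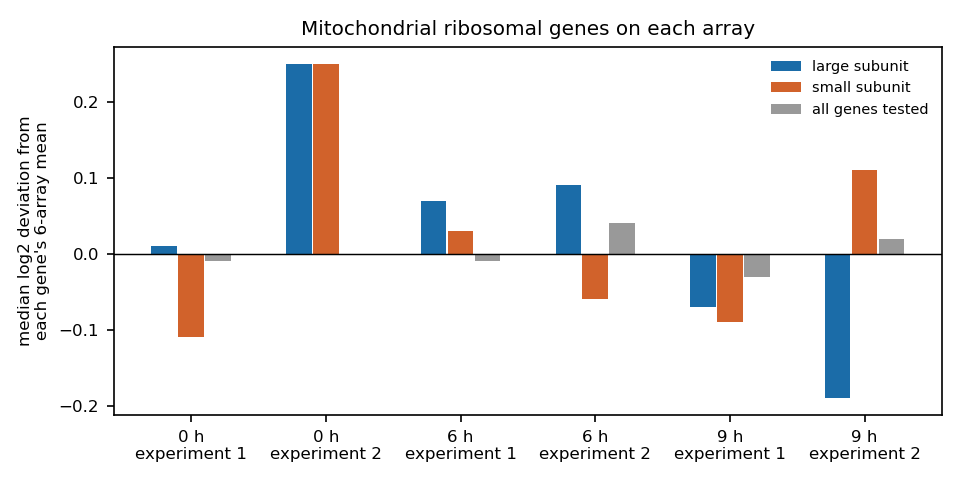
Median log2 deviation of large-subunit genes, small-subunit genes and all genes tested from each gene's own mean over the arrays, in order of time. Both subunits are highest on the 0 h array of experiment 2, at 0.25, where the median of all genes is 0.00.

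Among small-subunit genes MRPS18B, 1 of 3 related proteins, had the lowest change at 9 h. It read 100 and 161 units at 9 h, against 204 and 279 at 0 h, with no overlap, and 271 and 210 at 6 h. Its log2 change at 9 h was -0.90 ± 0.37, adjusted p = 0.667. The second MRPS18B probe set had -0.42, with 176 and 105 at 9 h, against 124 and 267 at 0 h, and its groups overlapped. The relative MRPS18A, with 129 and 263 units at 9 h, against 146 and 239 at 0 h, had a log2 change of -0.02. MRPS18C was dim, with 13.5 and 22 units at 9 h, against 13.9 and 5.52 at 0 h, where 1 array was below the floor, and had 0.37 on the floored scale.

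MRPS12, counterpart of a bacterial protein of the decoding centre, had 4 tested probe sets. The brightest read 244 and 240 units at 9 h, against 355 and 388 at 0 h, with no overlap, and 511 and 334 at 6 h. Its log2 change at 9 h was -0.62 ± 0.30, adjusted p = 0.703. The others had -1.69, 0.51 and 0.01, each with at least 1 array below the floor. MRPS34, particular to mitochondria and needed for a stable small subunit, read 140 and 102 units at 9 h, against 173 and 181 at 0 h (log2 change -0.57 ± 0.52, adjusted p = 0.864).

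Further large-subunit genes had smaller changes of that direction at 9 h, again with no overlap and none past the threshold. MRPL18 read 540 and 311 units at 9 h, against 646 and 610 at 0 h (log2 change -0.61 ± 0.33, adjusted p = 0.737). MRPL24 read 298 and 283 units at 9 h, against 472 and 380 at 0 h (log2 change -0.55 ± 0.28, adjusted p = 0.727). MRPL23, counterpart of a bacterial protein at the mouth of the peptide exit tunnel, read 324 and 238 units at 9 h, against 416 and 392 at 0 h (log2 change -0.54 ± 0.30, adjusted p = 0.743).

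Only 4 members were above 0 h at 9 h in both experiments, where 28% of all genes were. MRPS30 read 553 and 436 units at 9 h, against 235 and 424 at 0 h, a log2 change of 0.64 ± 0.34, adjusted p = 0.737, of which experiment 1 gave 1.24 and experiment 2 gave 0.04. Its second probe set had -0.15. MRPS31 read 163 and 252 units at 9 h, against 117 and 155 at 0 h, a log2 change of 0.59 ± 0.36, adjusted p = 0.772, and its second probe set had 0.20. In both genes the brightest probe set showed no overlap between 9 h and 0 h. MRPL58, a peptidyl-tRNA hydrolase of the large subunit that frees stalled ribosomes, read 231 and 302 units at 9 h, against 173 and 243 at 0 h (log2 change 0.37 ± 0.32, adjusted p = 0.851), and MRPS2 had 0.08 ± 0.36, both with overlap.

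**Figure D3:**
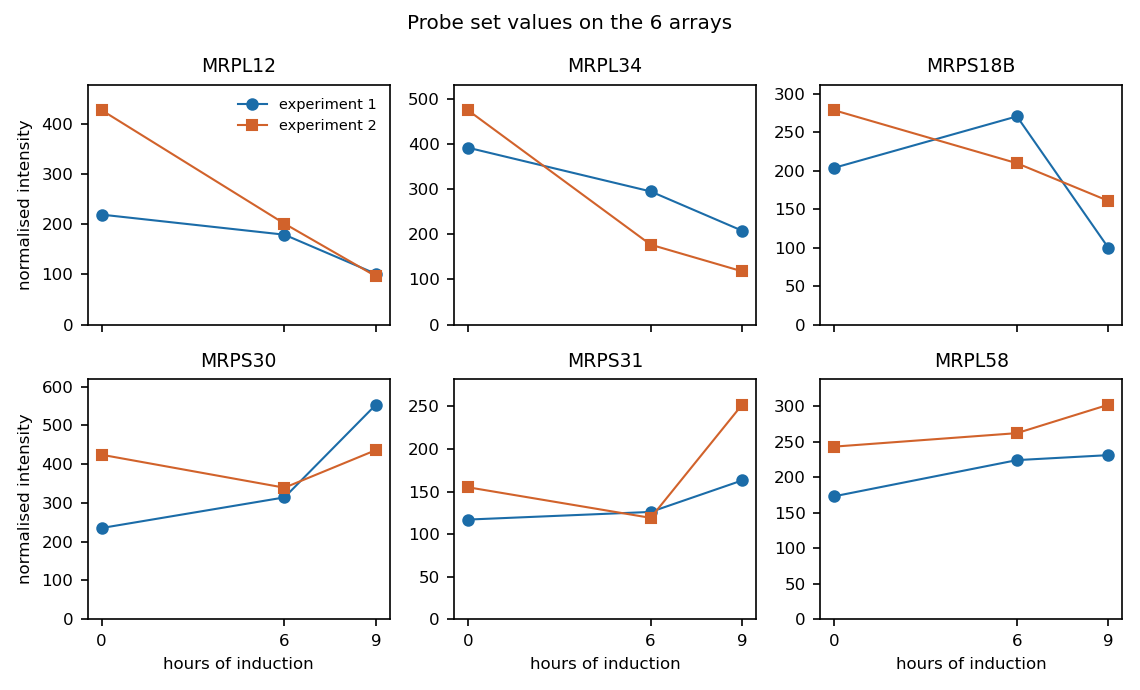
Normalised intensity at 0, 6 and 9 h for the 3 members with the lowest (MRPL12, MRPL34, MRPS18B) and the 3 with the highest (MRPS30, MRPS31, MRPL58) log2 change at 9 h among those of 1 direction in both experiments, with a line per experiment and axes from 0. MRPL12 reads 219 and 427 units at 0 h and 101 and 96.3 at 9 h in experiments 1 and 2.

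Promoter windows of both genes at each end of that order are shown because these members lie farthest apart at 9 h. Whether the message that a probe set reads begins at the gene's RefSeq start was not tested. Each window holds 300 bases, from 250 before to 50 after the start of the gene, 5' to 3' on the gene's strand, from RefSeq on GRCh38.p14, and capitals mark the letters of the ETS, YY1 and NRF1 motifs. MRPL12 lies at chr17:81703117-81703416 on the plus strand, MRPL34 at chr19:17292323-17292622 on the plus strand, MRPS30 at chr5:44808697-44808996 on the plus strand and MRPS31 at chr13:40771141-40771440 on the minus strand.
MRPL12: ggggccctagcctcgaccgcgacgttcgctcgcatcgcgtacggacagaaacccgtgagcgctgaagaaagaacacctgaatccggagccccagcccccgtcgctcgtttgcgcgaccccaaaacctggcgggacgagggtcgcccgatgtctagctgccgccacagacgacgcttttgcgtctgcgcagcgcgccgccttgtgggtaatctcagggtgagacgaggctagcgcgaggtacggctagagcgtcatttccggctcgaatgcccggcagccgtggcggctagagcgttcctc
MRPL34: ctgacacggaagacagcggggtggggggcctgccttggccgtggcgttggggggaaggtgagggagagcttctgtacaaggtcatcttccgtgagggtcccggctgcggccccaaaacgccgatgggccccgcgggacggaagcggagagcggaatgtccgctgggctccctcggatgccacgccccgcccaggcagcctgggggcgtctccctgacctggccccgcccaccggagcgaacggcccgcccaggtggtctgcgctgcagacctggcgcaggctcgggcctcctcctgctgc
MRPS30: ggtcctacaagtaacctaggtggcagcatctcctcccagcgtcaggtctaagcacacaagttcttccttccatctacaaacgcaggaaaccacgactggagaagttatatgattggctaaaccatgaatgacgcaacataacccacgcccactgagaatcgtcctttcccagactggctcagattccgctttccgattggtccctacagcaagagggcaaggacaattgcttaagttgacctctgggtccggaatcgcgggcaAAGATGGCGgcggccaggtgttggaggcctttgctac
MRPS31: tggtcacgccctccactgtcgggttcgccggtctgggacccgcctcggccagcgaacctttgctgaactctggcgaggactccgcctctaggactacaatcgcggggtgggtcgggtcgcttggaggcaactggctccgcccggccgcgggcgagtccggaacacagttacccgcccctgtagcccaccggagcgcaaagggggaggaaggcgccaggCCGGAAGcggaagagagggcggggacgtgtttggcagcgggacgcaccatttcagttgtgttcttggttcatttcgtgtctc
The letters searched were CCGGAAG for ETS factors such as GABP, AAGATGGCG for YY1 and the palindromic NRF1 motif, on both strands. These factors are known regulators of nuclear genes for mitochondria. The windows of MRPL12 and MRPL34 held none of them. That of MRPS30 held the YY1 letters at position 14 after the start, and that of MRPS31 the ETS letters at position -32. The next members in that order did not divide this way. Among those lower at 9 h, MRPS18B held the YY1 letters, MRPS12 and MRPS34 the ETS letters, and MRPL18 and MRPL24 none. Among those higher, MRPL58 held the ETS letters and MRPS2 none.

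A promoter window was found for 45 of the 51 members. The ETS letters stood in 18 of them (40.0%), against 10.7% of all 27305 windows and 14.2% of those of protein-coding genes. The YY1 letters stood in 8 (17.8%), against 1.85% and 2.74%. The NRF1 motif stood in 3 (6.67%), against 6.28% and 8.57%. Large-subunit and small-subunit genes held the ETS letters in 9 and 9 windows. The 25 tested members with any of the 3 had a median change of -0.07 (log2) at 9 h, and the 19 with none had -0.19. The difference between these medians was not tested. A match describes letters in a window and is not a binding site.

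At 6 h the members' median log2 change was -0.13, against 0.01 for all genes tested, with 29 below 0 where 48.6% of all genes were. It was 0.04 within experiment 1 and -0.18 within experiment 2. Dropping the experiment 2 array of 0 h gave 0.10, and dropping its experiment 1 counterpart gave -0.29. The median was 0.06 with the lot line as a block in the fit, a grouping that leaves experiment 2 without a 6 h array. It was -0.31 with median scaling in place of quantile normalisation. In 20 members both experiments had a change below 0, where 25% of all genes did. Both 6 h arrays lay below both 0 h arrays in 11 members (15.3% of all genes) and above them in 4 (16.8%). With a single array at 0 h, that of experiment 2, the counts were 33 lower (27.4% of all genes) and 5 higher (27.1%). With that of experiment 1 alone at 0 h they were 13 lower (30.3% of all genes) and 22 higher (31.5%). Leaving out the 6 h array of experiment 1 gave 18 lower (33.3% of all genes) and 10 higher (40.5%), and leaving out its counterpart gave 20 lower (32.4% of all genes) and 9 higher (33.7%). A change of 2-fold either way was seen in 0 members and in 6.57% of all genes. By limma 0 members passed, where 0% of probe sets did, and 0 had an unadjusted p under 0.05, where 4.22% of all genes did. With the experiment as a term 0 passed (0% of probe sets), and MRPL34 and MRPL40 had an unadjusted p under 0.05, where 9.74% of all genes did.

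MRPL34 had the lowest change at 6 h too, with 295 and 177 units at 6 h, against 392 and 475 at 0 h and a log2 change of -0.92 ± 0.40, adjusted p = 0.969. MRPL40, a protein particular to mitochondria, read 301 and 166 units at 6 h, against 377 and 353 at 0 h (log2 change -0.71 ± 0.43, adjusted p = 0.969), and at 9 h read 394 and 201, which overlapped the 0 h values. MRPL12 had -0.69 ± 0.38, adjusted p = 0.969 at 6 h, and -0.21 if that experiment 2 array of 0 h was dropped. MRPS16, a small-subunit protein with a bacterial counterpart, read 147 and 85.4 units at 6 h, against 191 and 169 at 0 h (log2 change -0.68 ± 0.38, adjusted p = 0.969). MRPL19, MRPL24, MRPL13 and MRPL23 had -0.66, -0.51, -0.42 and -0.33, and in all 8 of these genes the 6 h and 0 h arrays did not overlap. The change was larger in experiment 2 than in experiment 1 for each of them but MRPL24.

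On the higher side at 6 h stood MRPL52, a mitochondria-specific protein, with 53.2 and 39.5 units at 6 h, against 26.2 and 30.6 at 0 h (log2 change 0.70 ± 0.44, adjusted p = 0.969). MRPL2, counterpart of a core protein of the bacterial large subunit, read 136 and 152 units at 6 h, against 118 and 99.3 at 0 h (log2 change 0.41 ± 0.50, adjusted p = 0.972), and 60.2 and 159 at 9 h. MRPL15 read 842 and 1166 units at 6 h, against 716 and 867 at 0 h (log2 change 0.33 ± 0.26, adjusted p = 0.969), with overlap. MRPL58, MRPS18C, MRPL35, MRPL48 and MRPL16 had 0.24, 0.24, 0.19, 0.19 and 0.12. In unscaled values all 8 of these changes were below 0, between -1.43 and -0.63.

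Between 6 h and 9 h the members' median log2 change was -0.05, against -0.01 for all genes, and it turned to 0.21 with median scaling. By limma 0 members passed, without or with the experiment as a term (0% of probe sets each). MRPL12, MRPS18B and MRPS12, with -0.94, -0.91 and -0.77, had an unadjusted p under 0.05, where 5.04% of all genes did, and 5 members had one with that term (9.38%). With both induced times against 0 h the median was -0.11, and 0 members passed, where 0% of probe sets did without the term and 0.163% with it. There MRPL12 and MRPL34 had an unadjusted p under 0.05 (6.42% of all genes), and 4 members with the term (13.2%).

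The subunits had close medians at 6 h and 9 h against 0 h when all arrays were used. At 9 h the 30 large-subunit genes had a median of -0.16 (log2) and the 20 small-subunit genes -0.11, a difference of -0.05. That difference was -0.01 in experiment 1, -0.20 in experiment 2, and it became -0.30 once the experiment 1 array of 9 h was dropped. The large-subunit median was then -0.23 and the small-subunit median 0.07. At 6 h the medians were -0.08 and -0.13, a difference of 0.05, which was -0.07 in experiment 1 and 0.10 in experiment 2. For 9 h against 6 h they were -0.19 and 0.01, a larger difference of -0.20. It was -0.08 in experiment 1 and -0.22 in experiment 2. Structures of the particle place MRPS30 and MRPS18A in the large subunit in spite of their names. Counted there, the differences from 0 h were 0.02 at 9 h and 0.05 at 6 h between large and small. These differences were not tested, since genes of a set are not replicates.

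Probe sets of 1 gene differed in the sign of their change for some genes, in part through values near 0. Of 9 genes with several tested probe sets, 4 had changes of both signs at 6 h (MRPL9, MRPS12, MRPS18B, MRPS30) and 3 at 9 h (MRPL57, MRPS12, MRPS30). At 6 h MRPL9 had 0.07 and -0.15, MRPS18B 0.00 and -0.80, and MRPS30 0.05 and -0.09. In each of these at least 1 value lay within its standard error of 0. The 6 h values of MRPS12 were -1.09, 0.15, -0.23 and 0.35. For MRPL57 the brightest had -0.20 at 9 h, while another read 186 and 123 units at 9 h, against 62.6 and 85.6 at 0 h, a log2 change of 1.05. That probe set is of the kind Affymetrix marks as sharing probes with other sequences, as are those of MRPL35, MRPL41, MRPL44 and MRPS22.

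Other genes of mitochondrial translation were read from gene lists, with 0 genes past the threshold at 6 h or 9 h in any of them, without or with the experiment as a term. Of 3 subunits named otherwise, the small-subunit proteins DAP3 and PTCD3 read 418 and 298 units and 261 and 316 units at 9 h, against 229 and 272 and 182 and 228 at 0 h, log2 changes of 0.50 and 0.50. GADD45GIP1, of the large subunit, had -0.25. The 10 translation factors had a median of -0.17 at 9 h, 4 being lower and 3 higher in both experiments. MTRF1, a release factor relative, read 53.3 and 54.2 units at 9 h, against 13.6 and 19.7 at 0 h (1.72 ± 0.54, adjusted p = 0.6). These 0 h values lie near the floor of 12.7 units, and the 6 h array of experiment 1, at 10.4, was below it. MTRF1L, a mitochondrial release factor, read 25.9 and 7.68 units at 9 h, against 45 and 46.6 at 0 h (-1.34 ± 0.57, adjusted p = 0.674), with the 9 h array of experiment 2 below the floor. Its probe set is also of the kind marked as sharing probes. OXA1L, an inner-membrane insertase, had -0.56.

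The 15 assembly and RNA modification factors had a median of 0.06 at 9 h, with 2 lower and 5 higher in both experiments. MRM2, a methyltransferase of the large ribosomal RNA, read 205 and 287 units at 9 h, against 88.2 and 168 at 0 h (log2 change 0.99), and RBFA, a small-subunit maturation factor, read 106 and 43.3 units at 9 h, against 119 and 114 at 0 h (log2 change -0.78). The 12 genes that charge mitochondrial tRNAs had a median of 0.12, with 0.60 for GATB and -0.33 for IARS2. The 9 genes of mitochondrial DNA and transcription had 0.32, with 1 lower and 6 higher in both experiments. The lower one was POLRMT, the polymerase that MRPL12 binds, with 149 and 171 units at 9 h, against 286 and 310 at 0 h and no overlap, a log2 change of -0.90 ± 0.29, adjusted p = 0.604. MTERF1, a transcription terminator, had 0.84.

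The 10 regulators of nuclear genes for mitochondria had a median of 0.23 at 9 h. MYC read 870 and 629 units at 9 h, against 475 and 250 at 0 h (log2 change 1.10), and GABPB1, partner of an ETS factor, had 1.64 in experiment 1 and 0.12 in experiment 2. The 22 genes of protein import and its chaperones had a median of -0.21, with 12 lower and 3 higher in both experiments. TOMM22, a receptor of the outer membrane, read 109 and 95.1 units at 9 h, against 356 and 286 at 0 h (log2 change -1.65 ± 0.50, adjusted p = 0.596). HSPE1, the co-chaperonin, had -0.46 in experiment 1 and -2.59 in experiment 2.

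Over all arrays the members' median lay between those of the cytosolic ribosome and the respiratory chain, an order that single arrays turned. At 9 h it was -0.15, beside 0.01 for 56 cytosolic ribosomal genes and -0.35 for 65 genes of oxidative phosphorylation. In both experiments 20, 13 and 41 of them were lower. With the experiment as a term, 1 gene of oxidative phosphorylation passed the threshold at 9 h, as lower (limma adjusted p = 0.0298). Of all tested probe sets 0.359% passed there, and 0 cytosolic ribosomal genes did. For both induced times against 0 h, 1 gene of oxidative phosphorylation again passed as lower with that term (limma adjusted p = 0.0496), where 0.163% of probe sets did. At 6 h the medians were -0.13, -0.05 and -0.30. At 9 h the members' median was -0.22 and that of oxidative phosphorylation -0.18 when 9 h lacked experiment 2, and -0.36 and -0.30 when 0 h lacked experiment 1. At 6 h these were -0.29 and -0.27 when 0 h lacked experiment 1. The members lay above the cytosolic ribosome at 6 h when 0 h lacked experiment 2, with 0.10 and 0.01, and within experiment 1, with 0.04 and -0.03. Differences between the sets were not tested.

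**Figure D4:**
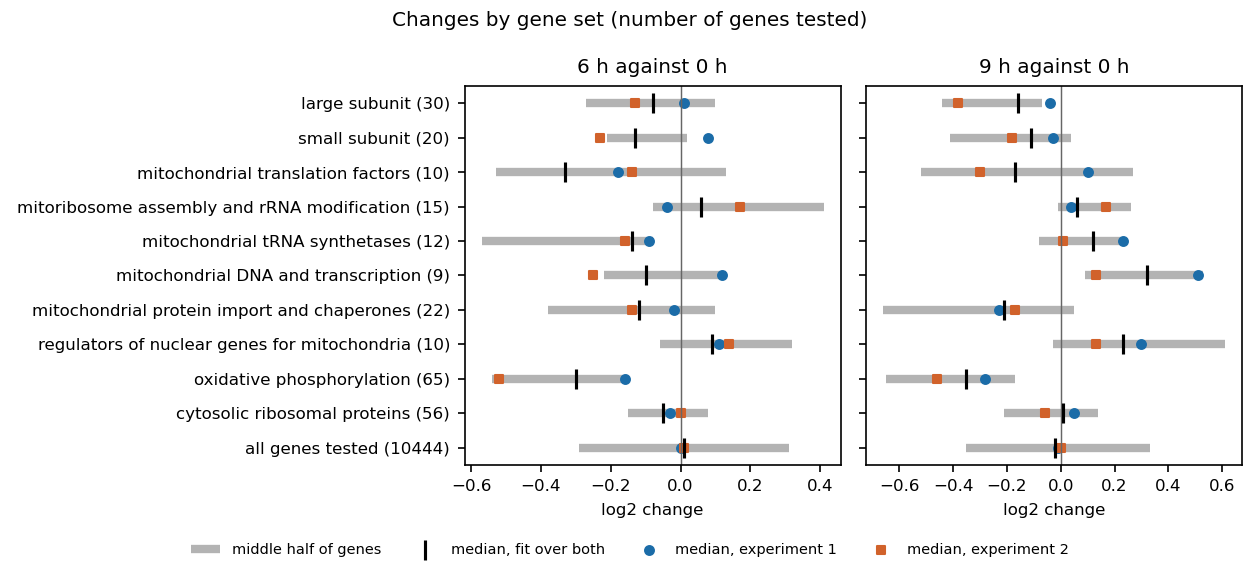
Median log2 change, range between quartiles and median within each experiment for the gene sets, at 6 h and 9 h against 0 h. At 9 h the large and small subunits have medians of -0.16 and -0.11, oxidative phosphorylation -0.35 and all genes -0.02.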

How the data were processed

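The authors deposited 1 linear intensity per probe set and array, unscaled between arrays, and the sources used here do not give the software. The highest and lowest trimmed means (2% left out per end) differed 5.52-fold. Intensities were therefore quantile normalised, floored at their 25th percentile (12.7 units) and put on the log2 scale. After 68 controls were removed, 18360 probe sets above the floor on at least 2 arrays were tested. The platform table gave 19071 probe sets 1 symbol, 1043 several and 2169 none. For 19059 of those with 1 symbol, the current symbol was read through the Entrez number, whether or not it differed. The brightest tested probe set stood for a gene. limma 3.58.1 under R 4.3.3 (intensity trend in eBayes, 3 residual degrees of freedom) gave two-sided p-values, adjusted by Benjamini-Hochberg over all tested probe sets. The fit was run on simulated data with the same noise for every probe set and planted changes larger than that of any member. Its power for changes of the size reported here was therefore not tested. With 6 arrays, their number limits the precision.

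The labels tie each experiment to its own RNA batch, which pairs arrays across times. Same-experiment deviations had correlations of 0.247 for 6 h with 0 h, 0.336 for 9 h with 0 h and 0.391 for 9 h with 6 h. A replicate block for the experiment (2 residual degrees of freedom) was an alternative. For 1 array (6 h, experiment 2) the lot line names experiment 1, and the title was used. Values by array were given to the members with up to 8 of the largest changes in each direction (same direction in both experiments) per comparison with 0 h, the 4 brightest and 4 dimmest of each subunit, the MRPS18 relatives, genes with probe sets of both signs and up to 3 genes per other list. Oxidative phosphorylation and cytosolic ribosomal genes were taken by symbol. Members, lists and tests were chosen with earlier results of these data known.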

Additional observations from a re-analysis of the deposited data

How the results depend on the processing

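The count of members past the threshold was 0 in all 4 comparisons under each alternative run. The replicate block left the medians at -0.15 (9 h against 0 h) and -0.13 (6 h against 0 h) and changed no call. The median at 6 h was 0.06 with the lot line as the block, -0.31 with median scaling, -1.65 unscaled and -0.29 to 0.10 with 1 array left out. The median at 9 h was -0.72 unscaled and -0.36 to -0.07 with 1 array left out. For 9 h against 6 h it was -0.16 with the lot line, 0.21 with median scaling, 0.96 unscaled, -0.05 with no floor and an offset of 16, -0.04 with the median of a gene's probe sets and -0.10 to -0.05 with 1 array left out. For both induced times it was -1.17 unscaled and -0.33 to 0.01 with 1 array left out. Large minus small at 6 h was -0.07 with the lot line, and at 9 h -0.30 to 0.02 with 1 array left out. Counts with no overlap, an alternative chosen after seeing the data, were 18 to 30 lower and 4 to 15 higher at 9 h, and 13 to 33 and 5 to 22 at 6 h, with 1 array left out. The shares of all genes were then 31.8 to 36.3% and 28.9 to 39.3% at 9 h, and 27.4 to 33.3% and 27.1 to 40.5% at 6 h, beside 19.4%, 19.2%, 15.3% and 16.8% with every array. Unscaled, the 6 h changes of MRPL52, MRPL2, MRPL15, MRPL58, MRPS18C, MRPL35, MRPL48 and MRPL16 turned to -0.63, -1.06, -1.32, -1.31, -0.67, -1.33, -1.36 and -1.43, and the 9 h changes of MRPL58 and MRPS2 to -0.20 and -0.48. With median scaling MRPL48 and MRPL16 had -0.02 and -0.09 at 6 h. With 1 array left out the 6 h changes of MRPL58, MRPL35 and MRPL48 ranged over -0.00 to 0.49, -0.05 to 0.43 and -0.01 to 0.39, and MRPS2 at 9 h ranged from -0.20 to 0.36, with -0.18 without the 9 h array of experiment 2. Beyond what fewer arrays and unscaled brightness bring by construction, the cause was not tested.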
